A study of Mus musculus with 10 samples.

Results

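The subject is a group of genes that mark neutrophils, either as receptors on the cell surface or as proteins of their granules, in the skin of mice that overexpress the protease kallikrein 6. The group was set by name: Ly6g, Ngp, Retnlg, Clec4d, Clec4e, Trem1, Cxcr2, Csf3r, Fpr1 and Fpr2. Of these 10 genes, 9 have a row among the 20611 genes of the tables, and Ly6g was not analysed here. All 9 were among the 14861 genes with enough counts to be tested. In the transgenic mice (Klk6+), a Myc/His-tagged mouse Klk6 transgene is driven by a tetracycline transactivator, which in turn is under the bovine keratin 5 promoter. That promoter acts in epidermal keratinocytes and in some other stratified epithelia, and the transactivator works when doxycycline is absent. Control mice (WT) were littermates that carried neither transgene or only 1 of them, without expression, and the lines were backcrossed to C57BL/6. Breeding took place under doxycycline. The labels place the return of doxycycline chow to Klk6+ mice at 10 to 11 weeks and the collection of tissue at 14 to 16 weeks. Whether the mice were receiving doxycycline when tissue was taken is not clear from them. Whole skin of 5 mice per genotype, 3 males (replicates 1 to 3) and 2 females (replicates 4 and 5), gave 1 polyA-selected RNA library each.

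Neutrophils are short-lived white blood cells that form in the bone marrow under granulocyte colony-stimulating factor and enter inflamed tissue along gradients of chemokines and formylated bacterial peptides. They carry most of their antimicrobial proteins in granules that are filled in a fixed order during maturation, so mRNAs of the early granules are largely lost before the cell leaves the marrow, while several receptor mRNAs are made late. In psoriasis and in psoriasis-like mouse skin, neutrophils are known to collect in the epidermis, where keratinocytes release chemokines that bind CXCR2.

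The WT libraries held 32798416 to 41970272 counts each, and the Klk6+ libraries 26521019 to 39796511. A single count was therefore worth 0.0230 to 0.0373 CPM, the count scaled to a common library size. Klk6 itself, transgene included, stood at 10293 to 14773 CPM in Klk6+ libraries, against 12.7 to 26.5 CPM in controls. The labelled tissue carried its markers in each library. The summed level of 5 keratinocyte genes was 4669 to 13714 CPM in controls, and in Klk6+ it was 18539 to 27879 CPM. Markers of skeletal muscle were present too: 6 genes summed to 35609 to 55553 CPM in controls and 2501 to 4776 CPM in Klk6+. Expression differed broadly between the genotypes. Of all genes tested, 37.7% were higher and 35.1% lower in Klk6+ at an adjusted p below 0.05 in edgeR's quasi-likelihood test with Benjamini-Hochberg adjustment. In 30.1% of them, each Klk6+ library lay above each WT library. The counts below have to be read against these shares.

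The stretches of 140 bases before the RefSeq start of 6 of the 9 genes are shown first. In 5 of them they hold sequence motifs of the 2 transcription factor families best known for granulocyte genes. Each stretch ends at the base before that start and is from RefSeq's promoter table (GRCm38.p6), which held all 9 genes. Capitals mark TTNNGNAA, a form of the motif bound by C/EBP factors, and GAGGAA, the core bound by PU.1, on either strand. The Retnlg stretch holds neither motif and is shown with that of its neighbour Retnla, since the levels of these relatives differed between the genotypes in opposite directions.
Ngp: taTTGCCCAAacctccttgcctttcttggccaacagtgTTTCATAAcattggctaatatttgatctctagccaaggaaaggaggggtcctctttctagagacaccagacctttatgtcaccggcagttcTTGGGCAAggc
Clec4d: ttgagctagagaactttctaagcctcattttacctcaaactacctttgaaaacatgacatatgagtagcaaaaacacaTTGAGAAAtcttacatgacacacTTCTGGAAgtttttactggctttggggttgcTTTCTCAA
Clec4e: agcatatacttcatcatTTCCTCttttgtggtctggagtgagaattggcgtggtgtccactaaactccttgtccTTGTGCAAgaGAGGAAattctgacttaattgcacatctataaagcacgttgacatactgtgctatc
Cxcr2: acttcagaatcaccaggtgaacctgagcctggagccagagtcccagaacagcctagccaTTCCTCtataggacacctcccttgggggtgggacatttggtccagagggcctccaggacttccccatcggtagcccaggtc
Csf3r: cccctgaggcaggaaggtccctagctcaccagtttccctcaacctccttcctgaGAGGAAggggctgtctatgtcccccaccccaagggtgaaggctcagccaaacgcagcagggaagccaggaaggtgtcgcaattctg
Retnlg: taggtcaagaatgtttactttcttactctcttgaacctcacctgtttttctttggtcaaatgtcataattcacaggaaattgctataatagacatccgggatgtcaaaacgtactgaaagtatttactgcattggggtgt
Retnla: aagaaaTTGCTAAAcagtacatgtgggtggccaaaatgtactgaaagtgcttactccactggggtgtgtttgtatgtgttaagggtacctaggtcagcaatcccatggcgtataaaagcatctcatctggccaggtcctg
These are, in order, chr9:110419668-110419807 on the plus strand, chr6:123261967-123262106 on the plus strand, chr6:123289872-123290011 on the minus strand, chr1:74153854-74153993 on the plus strand, chr4:126024519-126024658 on the plus strand, chr16:48872468-48872607 on the plus strand and chr16:48842469-48842608 on the plus strand. The GENCODE gene positions given further on start well before the RefSeq start for 3 of them, by 61 bases for Ngp, 109 bases for Csf3r and 58 bases for Retnla, so the end of these stretches lies within the gene by that annotation. For the other genes shown, the starts differed by at most 13 bases.

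Over the 250 bases before the start, TTNNGNAA was found in 7 of the 9 genes, against 36.8% of 32851 promoters in the table. GAGGAA was found in 6 of the 9, against 23.3% of all promoters, and both motifs in 4 of the 9, against 8.87%. Ngp held 3 matches of the first motif and none of the second. Clec4d also held 3 matches of the first, all within the stretch shown. In Clec4e the motifs lay next to each other, with TTNNGNAA at -66 and GAGGAA at -56, counted from the start to the first base of the match. Cxcr2 and Csf3r held GAGGAA alone, at -81 and -86, and the match of Csf3r, like the Ngp match at -11, lies within the gene by GENCODE. Retnlg had its single TTNNGNAA match at -246, outside the stretch shown. The motifs overlapped each other in none of the 9 genes, and did so in Retnla, where both matched at -196. Retnlg and Retnla shared an ungapped segment of 65 bases with 50 identical, or 76.9%, which ended at -1 in Retnlg and at -74 in Retnla. These matches describe the letters only, since binding was not measured.

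All 9 genes were higher in Klk6+ skin, against 37.7% of all genes tested. For 8 of the 9, the 5 Klk6+ libraries all lay above the 5 WT libraries, both in CPM and in the deposited FPKM. In CPM this held for 30.1% of all genes tested. The median log2 fold change of the 9 was 4.61, against 0.04 over all genes tested. Without WT 2 the median was 5.71, and without Klk6+ 3 and Klk6+ 5, a choice made after seeing the data, it was 3.66. All 9 stayed higher in both settings. Together the 9 genes made up 0.000617% to 0.00257% of the counts of a WT library and 0.00782% to 0.0447% of those of a Klk6+ library. Whole skin was sampled, so more cells of a type and more RNA per cell cannot be told apart.

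**Figure D1:**
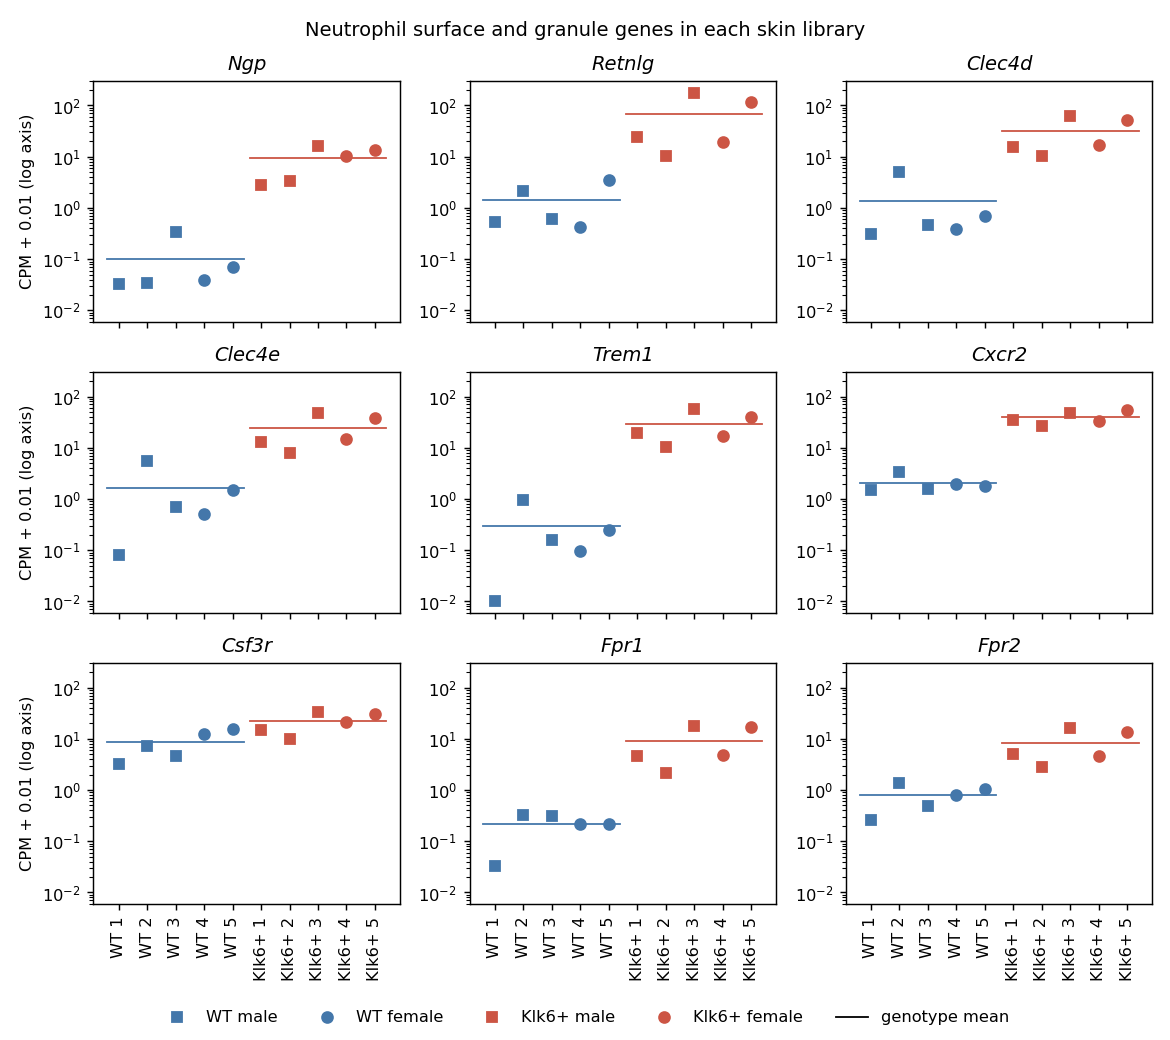
CPM of each of the 9 genes in each library, on a log axis after adding 0.01, with squares for males, circles for females and a line at the mean of each genotype. Klk6+ libraries lie above all WT libraries for 8 genes, and Csf3r overlaps between 9.79 and 15.7 CPM.

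Ngp and Retnlg encode secreted products of maturing and mature neutrophils. Ngp, or neutrophilic granule protein, is a cathelicidin-related protein of the secondary granules and is encoded on the plus strand of chromosome 9 (GRCm38, chr9:110419747-110423012). Ngp stood at 0.0230, 0.0241, 0.329, 0.0293 and 0.0597 CPM in WT 1 to 5, and at 2.78, 3.38, 15.9, 10.5 and 13.6 CPM in Klk6+ 1 to 5. WT 3 was the highest control with 11 reads, the other controls held 1 or 2 reads each, and the lowest Klk6+ library was still above WT 3. The difference was 6.61 ± 0.83 on the log2 scale (SE, edgeR adjusted p = 4.85e-05). Its size depended on single libraries, as it was 8.02 without WT 3 and 5.95 without Klk6+ 3. Retnlg, also called resistin-like gamma, is a small secreted protein made in marrow and by circulating neutrophils (chr16:48872621-48874496, plus strand). Its levels were 0.528, 2.14, 0.598, 0.410 and 3.55 CPM in WT 1 to 5 and 24.2, 10.2, 171, 19.1 and 119 CPM in Klk6+ 1 to 5. Klk6+ 3 and Klk6+ 5 were far above the other 3 transgenic libraries, and the highest Klk6+ value was 16.8 times the lowest. Retnlg was higher by 5.61 ± 1.01 on the log2 scale (SE, edgeR adjusted p = 5.83e-04), with 4.50 without Klk6+ 3 and 6.29 without WT 5. Without both Klk6+ 3 and Klk6+ 5 it was 3.66.

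Clec4d and Clec4e are neighbouring C-type lectin receptors, known as MCL and Mincle, that bind glycolipids of mycobacteria and fungi and signal through the Fc receptor gamma chain. Both are also made by activated macrophages. They lie 6523 bases apart on chromosome 6, Clec4d on the plus strand (chr6:123262111-123275265) and Clec4e on the minus strand (chr6:123281789-123289870). Clec4d stood at 0.299, 5.10, 0.449, 0.380 and 0.687 CPM in WT 1 to 5 and at 15.5, 10.2, 61.7, 17.2 and 52.4 CPM in Klk6+ 1 to 5. WT 2 alone among the controls exceeded 1 CPM, and it was still below the lowest Klk6+ library. Clec4d was higher by 4.61 ± 0.93 on the log2 scale (SE, edgeR adjusted p = 0.00123), with 6.16 without WT 2 and 4.09 without Klk6+ 3. Clec4e showed the same order of libraries at the top of each genotype, with 0.0689, 5.39, 0.688, 0.497 and 1.46 CPM in WT 1 to 5 and 13.0, 7.87, 47.1, 14.7 and 37.3 CPM in Klk6+ 1 to 5. Its highest control, WT 2, was just below its lowest Klk6+ library. Clec4e was higher by 3.93 ± 0.93 (SE, edgeR adjusted p = 0.00327), with 5.31 without WT 2 and 3.39 without Klk6+ 3.

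Trem1 is an immunoglobulin-like receptor that amplifies inflammatory signalling in neutrophils and monocytes through the adaptor DAP12, the product of Tyrobp (chr17:48232768-48246924, plus strand). It had 0 counts in WT 1, which allows up to 0.0689 CPM if 3 counts are taken as the limit, and 0.963, 0.1495, 0.0878 and 0.239 CPM in WT 2 to 5. This limit covers counting error only. In Klk6+ 1 to 5 it stood at 19.1, 10.2, 57.0, 16.9 and 39.1 CPM. No WT library reached 1 CPM and no Klk6+ library fell below 10. Trem1 was higher by 6.61 ± 0.85 on the log2 scale (SE, edgeR adjusted p = 5.60e-05), with 7.96 without WT 2 and 6.06 without Klk6+ 3.

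Cxcr2 encodes the main receptor by which neutrophils follow CXC chemokines, and Csf3r the receptor for granulocyte colony-stimulating factor. Cxcr2 (chr1:74153989-74161246, plus strand) stood at 1.47, 3.42, 1.58, 1.99 and 1.76 CPM in WT 1 to 5 and at 35.5, 26.5, 48.8, 33.0 and 55.7 CPM in Klk6+ 1 to 5. The Klk6+ libraries were close together, with the highest 2.10 times the lowest, the smallest such ratio of the 9 genes. Cxcr2 was higher by 4.27 ± 0.30 on the log2 scale (SE, edgeR adjusted p = 1.36e-06), which moved between 4.04 and 4.57 when each library was left out in turn. Csf3r (chr4:126024550-126044440, plus strand) had the highest control levels of the CPM values, 3.26, 7.29, 4.52, 12.5 and 15.7 in WT 1 to 5, and 15.0, 9.79, 32.9, 20.9 and 30.8 in Klk6+ 1 to 5. Both WT females were above the 3 WT males, and WT 5 exceeded Klk6+ 1 and Klk6+ 2, so that the genotypes overlapped. Csf3r was higher by 1.51 ± 0.38 (SE, edgeR adjusted p = 0.00438), the smallest difference of the group. Of all 50-base words in its transcripts, 10.7% also occur in other genes, and 6.68% do in Cxcr2, so a part of the reads of either gene could have been dropped or shared in counting.

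Fpr1 and Fpr2 are receptors for formylated peptides, which bacteria and damaged mitochondria release; Fpr2 also binds annexin A1 and serum amyloid A. They lie 3883 bases apart on chromosome 17, Fpr1 on the minus strand (chr17:17876471-17883940) and Fpr2 on the plus strand (chr17:17887824-17893952). Fpr1 stood at 0.0230, 0.313, 0.299, 0.205 and 0.209 CPM in WT 1 to 5 and at 4.70, 2.13, 17.7, 4.78 and 16.7 CPM in Klk6+ 1 to 5. WT 1 held a single read, and Klk6+ 3 and Klk6+ 5 stood well above the other transgenic libraries. Fpr1 was higher by 5.44 ± 0.76 on the log2 scale (SE, edgeR adjusted p = 1.05e-04), and by 4.76 without Klk6+ 3. Fpr2 stood at 0.253, 1.35, 0.478, 0.790 and 1.05 CPM in WT 1 to 5 and at 5.10, 2.86, 15.9, 4.66 and 13.6 CPM in Klk6+ 1 to 5. Again Klk6+ 3 and Klk6+ 5 were highest, and Klk6+ 2 was the lowest transgenic library. Fpr2 was higher by 3.43 ± 0.60 (SE, edgeR adjusted p = 4.62e-04). Of the 50-base words of Fpr2, 31.5% also occur in Fpr1, Fpr3 or Gm5966, and 48 of its exon bases are shared with Fpr3, which makes its count less certain than that of Fpr1, where the share is 0.0784%.

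Levels can be compared between genes only per transcript length, for which the authors' FPKM were used. In Klk6+ skin Retnlg had the highest median, 51.5 FPKM (20.7 to 355). It was followed by Clec4d at 13.7, Cxcr2 at 10.8, Ngp at 9.85, Trem1 at 5.87, Clec4e at 5.71, Csf3r at 5.17, Fpr2 at 4.03 and Fpr1 at 3.84 FPKM. In WT skin Csf3r led with a median of 1.66 FPKM (0.783 to 3.68), before Retnlg at 1.25 FPKM (0.878 to 7.51), while Ngp was last at 0.0266 FPKM. In both orders, neighbouring genes overlapped in their ranges over 5 libraries, so the order of neighbours is not resolved.

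**Figure D2:**
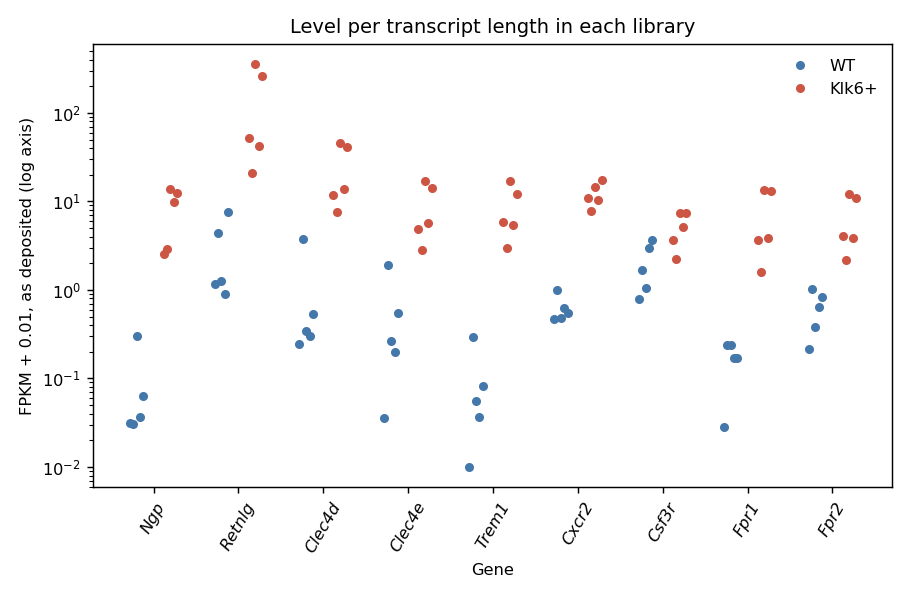
FPKM as deposited, after adding 0.01 and on a log axis, for each of the 9 genes in the 5 WT (blue) and 5 Klk6+ (red) libraries. Retnlg reaches 355 FPKM in Klk6+, and Csf3r is the gene whose genotypes overlap.

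The same libraries stood out for most of the genes. Klk6+ 3 was the highest transgenic library for 8 of the 9, Klk6+ 5 for Cxcr2, and these libraries took the top places for all 9. Klk6+ 2 was the lowest transgenic library for 8. Among the controls, WT 2 was highest for 6, and WT 1 was lowest for 8. The summed level of the 9 genes was 5.93, 26.0, 9.09, 16.9 and 24.8 CPM in WT 1 to 5, and 135, 83.2, 468, 142 and 378 CPM in Klk6+ 1 to 5. The lowest transgenic sum was thus above the highest control sum. Klk6+ 3 is a male and Klk6+ 5 a female, and the lowest transgenic library was a male.

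Markers of other cells that skin can hold moved with these libraries in part. Alas2, the haem synthesis gene of red-cell precursors, stood at 37.7 CPM in Klk6+ 3 and 74.0 CPM in Klk6+ 5, against 5.46 to 15.5 CPM in the other transgenic libraries. It was as high in WT 3, at 63.9 CPM, where the 9 neutrophil genes summed to 9.09 CPM. Of the 5 blood genes listed, 4 had a row, and 2 of those were tested and not called. Alas2, at 0.60 ± 0.98 on the log2 scale (SE), turned on single libraries: it was called higher without WT 3, at 1.98, and was at -0.52, not called, without Klk6+ 5. Their summed level was 4.69 to 69.3 CPM in controls, and 5.96 to 77.6 CPM with the transgene. The globin genes differed between the deposited units: their counts stayed between 0 and 3.47 CPM, while Hba-a1 reached 2874 FPKM in WT 3, 974 FPKM in Klk6+ 3 and 2633 FPKM in Klk6+ 5. In the other 7 libraries Hba-a1 lay between 127 and 458 FPKM, so by FPKM the same 3 libraries were high as for Alas2. All 11 macrophage and monocyte markers were lower in Klk6+, with sums of 351 to 1272 CPM there against 1216 to 5314 CPM in WT. They were highest in the WT females, at 4533 and 5314 CPM, where Csf3r was highest among controls too. Klk6+ 5 and Klk6+ 3 had the highest macrophage sums of their genotype, at 1272 and 742 CPM. Of the other lists, 5 of 6 mast-cell markers were higher, with sums of 237 to 477 CPM in Klk6+ against 176 to 280 CPM in WT. Of 4 T-cell markers measured, 3 were lower (sums of 17.2 to 27.1 and 6.21 to 9.28 CPM), and all 6 skeletal-muscle markers were lower (35609 to 55553 and 2501 to 4776 CPM). Of 3 eosinophil markers tested, 2 were lower, the list summed to 0.627 to 1.13 CPM in Klk6+ and in WT to at least 1.10 CPM, with 2.09, 2.45, 2.25 and 8.003 CPM in WT 2 to 5, and Epx had 0 counts in WT. Among 5 keratinocyte markers, 3 were higher and 1 lower. Beside all these counts stand 37.7% higher and 35.1% lower among all genes tested. The part of blood or of these other cells in the differences of the neutrophil genes was not tested.

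**Figure D3:**
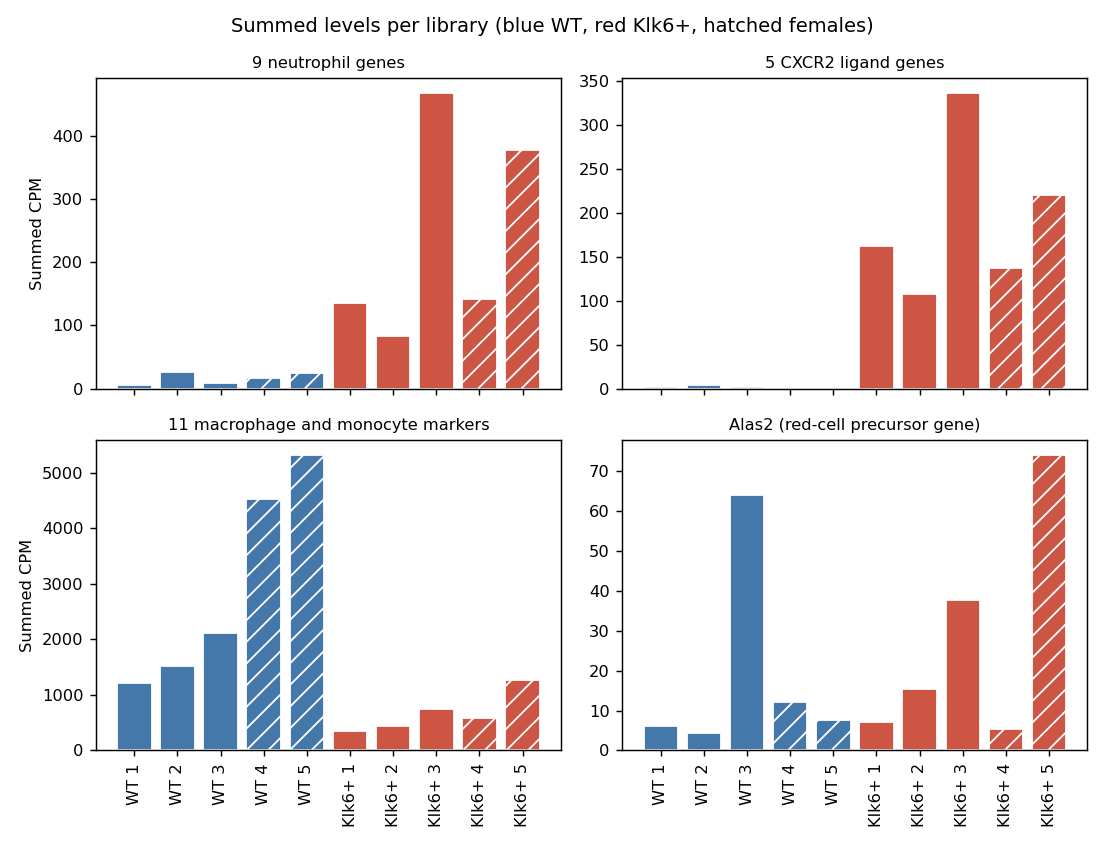
Summed CPM per library for the 9 neutrophil genes, 5 CXCR2 ligand genes, 11 macrophage and monocyte markers, and Alas2, with WT in blue, Klk6+ in red and females hatched. The neutrophil genes are highest in Klk6+ 3 (468 CPM) and Klk6+ 5 (378 CPM), and Alas2 is high in these libraries and in WT 3.

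Both sexes showed the difference. Within males, 3 against 3, all 9 genes were higher at an adjusted p below 0.05 in edgeR's quasi-likelihood test, against 33.4% of all genes tested. Within females, 2 against 2, 8 of the 9 were higher, against 31.2% of all genes. The exception was Csf3r, at 0.87 ± 0.54 on the log2 scale in females (SE, edgeR adjusted p = 0.190) and 1.94 ± 0.46 in males (SE, edgeR adjusted p = 0.00489). Ngp was higher by 5.96 ± 1.01 in males and 7.97 ± 1.42 in females, and Clec4d by 3.89 ± 1.11 and 6.02 ± 1.56. These male values turned on single controls: Ngp was at 8.11 in males without WT 3, and Clec4d at 6.31 without WT 2. The difference between the sexes itself was not called for any of the 9 genes. The lowest adjusted p was 0.678, for Csf3r, whose interaction was -1.07 ± 0.70 (female minus male effect, SE). Over all genes the interaction was called for 0 of 14861, or 0%, in edgeR with either scaling, while 1410 genes had an unadjusted p below 0.05. The male count was 8 without WT 1, without WT 3 and without Klk6+ 3, each time through the loss of Clec4e (edgeR adjusted p of 0.0501, 0.0904 and 0.114, against 0.0286 with all libraries). The female count rested on few libraries, being 4 without WT 4, 5 without WT 5 and 5 without Klk6+ 5.

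**Figure D4:**
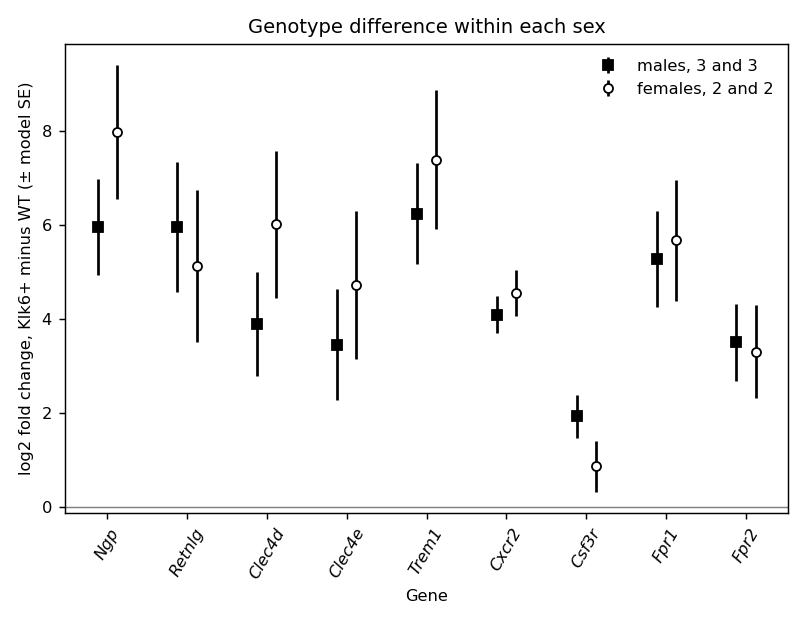
Log2 fold change of Klk6+ over WT within males (filled squares, 3 and 3 mice) and females (open circles, 2 and 2 mice), with model standard errors. The estimates lie above 0 in both sexes for all 9 genes, and Csf3r is smallest in both.

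The ligands of the same receptors were measured in the same libraries. Of 5 genes for chemokines that bind CXCR2, 4 were higher in Klk6+, against 37.7% of all genes tested. The list's median log2 fold change was 6.39. Cxcl1 went from 0.521 ± 0.452 to 41.1 ± 24.5 CPM (mean ± SD, n = 5 and 5), with a log2 fold change of 6.39 ± 0.46 (SE, edgeR adjusted p = 1.50e-06). Cxcl2 was higher by 7.74 ± 0.54, and Cxcl3 by 8.21 ± 0.69. Cxcl5 was higher by 5.46 ± 1.01, and by 8.04 without WT 2, the control in which 6 of the 9 neutrophil genes were highest. Without Klk6+ 4 the Cxcl5 difference was 5.01. Ppbp, a platelet chemokine, was not called. The 5 genes summed to 0.761 to 4.57 CPM in controls, against 107 to 336 CPM in Klk6+, and Klk6+ 3 and Klk6+ 5 were again the highest libraries and Klk6+ 2 the lowest. Csf3, the ligand of the receptor encoded by Csf3r, had 8 counts over all WT libraries, all of them in WT 2, and 2.01 to 10.3 CPM in Klk6+. Csf2, a related growth factor gene, was also higher, while Csf1, the macrophage growth factor, was lower by 1.85 on the log2 scale, at 108 ± 30.9 CPM in WT and 30.0 ± 9.13 CPM in Klk6+. All 4 genes for ligands of formyl peptide receptors were higher. Anxa1 was 591 ± 114 CPM in WT and 1007 ± 135 CPM in Klk6+, and Saa3, a serum amyloid A gene, 0.696 ± 0.296 and 206 ± 158 CPM. The log2 fold change of Saa3 was 8.17 ± 0.67, and 7.55 without Klk6+ 3.

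Other granule genes were then set beside Ngp. Of 9 genes for proteins of secondary and tertiary granules, 7 were higher, against 37.7% of all genes tested. Their median log2 fold change was 4.30. Ltf, for the iron-binding lactoferrin, was higher by 5.02 ± 0.86 (SE, edgeR adjusted p = 4.04e-04), with 6.14 without WT 3 and 4.41 without Klk6+ 3. Mmp8, the neutrophil collagenase, stood at 0.330 ± 0.409 CPM in WT and 26.6 ± 22.7 CPM in Klk6+. Its log2 fold change was 6.31 ± 0.91, with 7.49 without WT 2 and 5.55 without Klk6+ 3. Cd177, a surface protein held in these granules, was higher by 4.30 ± 0.77, with 5.22 without WT 2 and 3.70 without Klk6+ 3. Chil3, a chitinase-like protein, was higher by 5.12 ± 1.04, with 7.17 without WT 2 and 4.52 without Klk6+ 5. Lcn2, a siderophore-binding protein that keratinocytes also make, was 2.53 ± 1.15 CPM in WT and 609 ± 102 CPM in Klk6+. Mmp9 and Hp were not called, at -0.33 ± 0.43 and 0.16 ± 0.36. Mmp9 was called lower when both Klk6+ 3 and Klk6+ 5 were left out.

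Genes of the primary granules, which are filled first, were low in both genotypes. Of 4 listed, 2 could be tested and 1 was called higher, beside 37.7% of all genes tested. Mpo, for myeloperoxidase, was 0.0677 ± 0.0913 CPM in WT and 1.76 ± 1.29 CPM in Klk6+. It was higher by 4.46 ± 0.78 (SE, edgeR adjusted p = 4.52e-04), with 5.49 without WT 2 and 3.91 without Klk6+ 4. Prtn3, for proteinase 3, was 2.77 ± 1.27 and 1.36 ± 0.883 CPM, at -1.12 ± 0.47 (SE, edgeR adjusted p = 0.0551). It was called lower in 9 of 21 other settings. Elane and Ctsg stayed below 1 CPM in all libraries and were not tested.

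Other surface genes of neutrophils did not move as a block. Of 11 receptor and adhesion genes outside the 9, 3 were higher, 6 lower and 2 not called. The shares of all genes tested were 37.7% higher and 35.1% lower. The list's median log2 fold change was -0.89. Cxcr1, the other receptor for neutrophil chemokines, had 1 count over all WT libraries and 332 over the Klk6+ libraries, where it stood at 0.627 to 3.82 CPM. The ratio of these sums per library size was 383, with an exact 95% interval of 68.3 to 15190 that covers counting error only. The single control count was in WT 3, and without that library the ratio has no finite value. Ltb4r1, for the leukotriene B4 receptor, was higher by 1.55 ± 0.19 and did not overlap between genotypes. Itgam and Itgb2, which encode the chains of the integrin Mac-1 on neutrophils and macrophages alike, were lower by 1.24 and 1.60 on the log2 scale (Itgam -1.24 ± 0.40, Itgb2 -1.60 ± 0.33). Itgam's adjusted p passed 0.05 without WT 2 and without Klk6+ 1, at most 0.0507 against 0.0183 with all libraries in edgeR.

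The enzymes of the oxidative burst gave a similar split. Of 8 genes for the NADPH oxidase and its signalling, 4 were lower, 1 higher and 3 not called, with a median of -0.78. Among all genes tested, 35.1% were lower and 37.7% higher. Cybb, for the membrane subunit of the oxidase in neutrophils and macrophages, was 130 ± 93.4 CPM in WT and 12.6 ± 4.22 CPM in Klk6+, at -3.07 ± 0.32 (SE, edgeR adjusted p = 1.26e-05). Padi4, the histone-citrullinating enzyme of neutrophil extracellular traps, was higher by 1.44 ± 0.39, with overlap between genotypes in CPM but not in FPKM. It was called within males (2.22 ± 0.30, SE, edgeR adjusted p = 2.26e-04) but not within females (0.27 ± 0.35, SE, edgeR adjusted p = 0.535). The difference between the sexes was not called (edgeR adjusted p = 0.243). Among 5 myeloid transcription factors tested, 3 were higher and 1 lower, beside the same shares of all genes. Cebpb, whose family motif is marked in the stretches above, was 35.1 ± 6.60 CPM in WT and 126 ± 13.4 CPM in Klk6+. Spi1, which encodes PU.1, was lower, at 47.0 ± 26.2 and 16.9 ± 5.59 CPM. Both factors are made by other cells of the skin as well, Cebpb by keratinocytes and Spi1 by macrophages. The part of these cells in the differences of Cebpb and Spi1 was not tested.

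**Figure D5:**
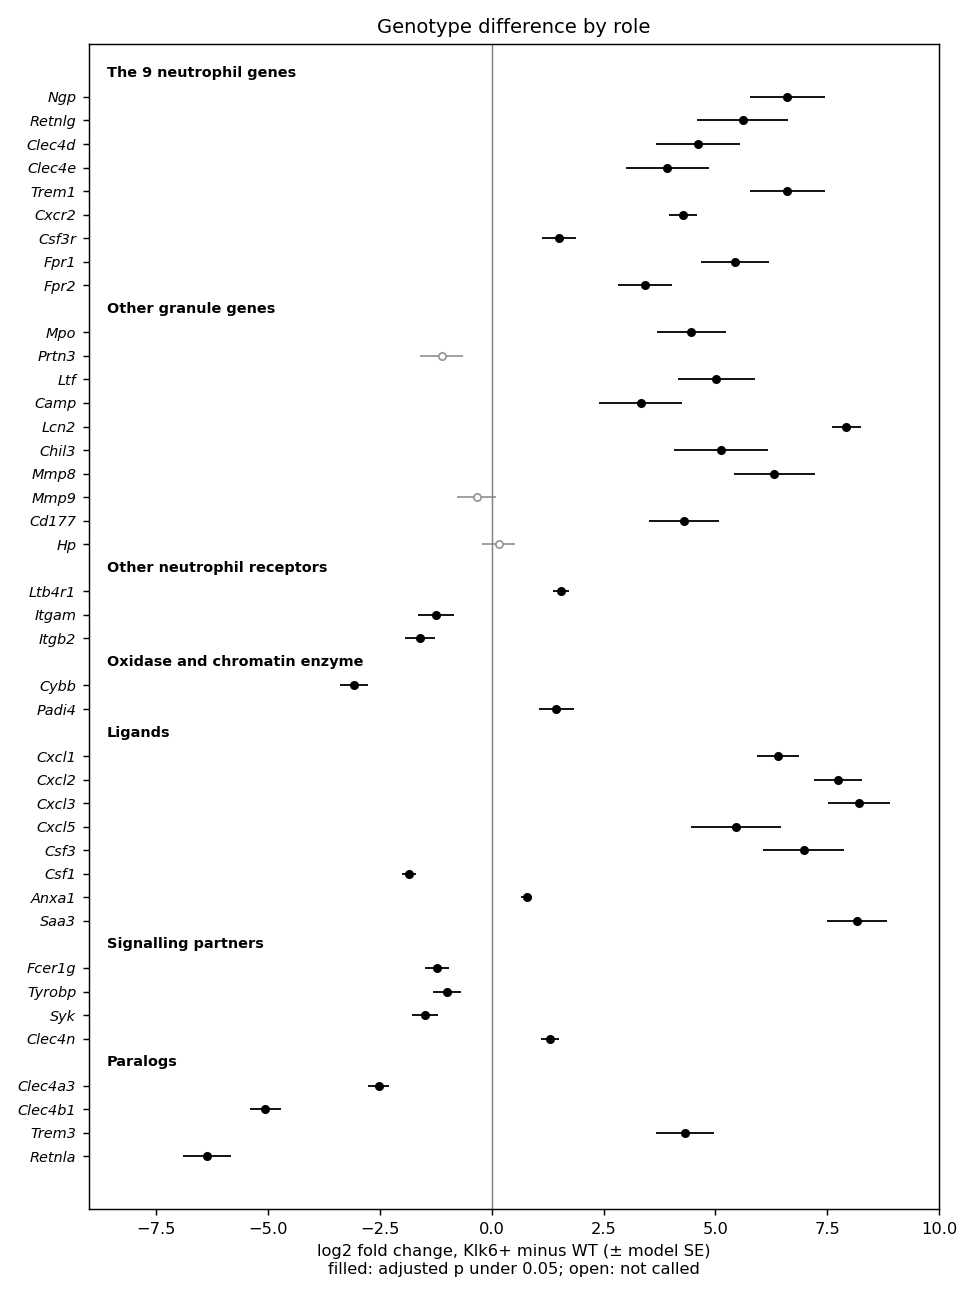
Log2 fold change of Klk6+ over WT with its model standard error for the 9 neutrophil genes and for named genes of related lists, filled where the adjusted p was below 0.05. The 9 genes, most granule genes and the CXCR2 ligands lie to the right of 0, and the integrin chains, Cybb and the adaptor genes lie to the left.

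The list of signalling partners of Clec4d, Clec4e and Trem1 also held the lectin receptors Clec7a and Clec4n. Of these 6 genes, 3 were lower, 1 higher and 2 not called, beside 35.1% of all genes that were lower. The higher one was the receptor Clec4n, and none of Fcer1g, Tyrobp, Syk and Card9 was higher. Fcer1g, the adaptor of both lectins, was 87.1 ± 41.4 CPM in WT and 35.1 ± 15.3 CPM in Klk6+, at -1.22 ± 0.26 (SE, edgeR adjusted p = 0.00173). Tyrobp, the adaptor of Trem1, was lower, at 90.2 ± 51.4 CPM in WT and 40.3 ± 17.6 CPM in Klk6+, and Syk, the kinase downstream of both adaptors, was lower at -1.49 ± 0.29. Each of the 3 overlapped between genotypes and is also made by macrophages. Clec4n, the related lectin Dectin-2, was higher by 1.30 ± 0.20. Of 15 paralogs listed, 11 could be tested, with a median of -1.86. Of these, 10 were lower and 1 higher, beside 35.1% and 37.7% of all genes tested. In this list, which leaves out Clec4n, the higher gene was Trem3, at 0.0526 ± 0.0503 CPM in WT and 1.15 ± 0.600 CPM in Klk6+. Clec4b1 and Clec4a3, lectins of dendritic cells and macrophages encoded by the same gene family as Clec4d, were lower, at -5.06 ± 0.34 and -2.52 ± 0.24. Fpr3 had 11 counts over all WT and 24 over all Klk6+ libraries and was not tested.

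Related genes were compared within each library for 4 pairs, by the difference of their log2 CPM (prior count 2), with two-sided exact permutation tests over 252 assignments and adjustment over the 4 pairs. The smallest p that this design can give is 0.00794. Retnlg was below Retnla by 9.58 ± 1.67 in WT (-9.58, SD, n = 5) and above it by 1.94 ± 1.80 in Klk6+, a shift of 11.53 (exact permutation p = 0.00794, adjusted 0.0106), or of 10.91 without Klk6+ 3. All Klk6+ libraries lay above all WT libraries for Retnlg and below them for Retnla. The smallest p was therefore fixed beforehand for this pair, and the test adds nothing to the single genes. Retnla, a product of alternatively activated macrophages, was 1282 ± 1312 CPM in WT and 10.5 ± 2.44 CPM in Klk6+, and lies 28159 bases from Retnlg on the same chromosome. Fpr2 was above Fpr1 by 1.64 ± 0.60 in WT and by 0.01 ± 0.27 in Klk6+, a shift of -1.63 (exact permutation p = 0.00794, adjusted 0.0106). These neighbours thus rose by unequal amounts, and the uncertain reads of Fpr2 bear on the ratio. On average Ngp was below Camp, its relative on chromosome 9 for the cathelicidin peptide, in WT (-0.83 ± 1.37, range -3.07 to 0.424). In Klk6+ Ngp was above Camp (1.93 ± 1.09), a shift of 2.76 (exact permutation p = 0.00794, adjusted 0.0106). Over all WT libraries Ngp held 16 counts and Camp 48, so the prior count bears on the WT ratio. For Clec4e and Clec4d the shift was -0.45 (exact permutation p = 0.325, adjusted 0.325), and it was -0.85 with an adjusted exact p of 0.0106 without WT 1, where Clec4e had 3 reads.

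The genes whose profile over the 10 libraries was most like the mean of the 9 were found by the root mean square distance of centred log2 CPM among 13848 genes. The nearest 8, led by Mrgpra2b at 0.545, were Mrgpra2b, Chil4, Cd177, Cxcr1, Tnfsf11, Fgf23, Tnc and Atp13a4. Mrgpra2b encodes a Mas-related receptor known from mouse neutrophils, and Cd177 and Cxcr1 encode neutrophil surface proteins. Chil4 is a chitinase-like protein, Tnfsf11 the cytokine RANKL, Fgf23 a phosphate-regulating hormone, Tnc the matrix protein tenascin C and Atp13a4 a cation-transporting ATPase. Mrgpra2b had 2 counts, Cxcr1 had 1 and Fgf23 had 3 over all WT libraries. With a prior count of 0.5 these 3 left the nearest 8, at ranks 46, 94 and 72, and the other 5 stayed. Each of the 8 was highest in Klk6+ 3 or Klk6+ 5, which follows from choosing them by likeness to the 9 genes. Of the 8, only Tnc had a WT mean above 1 CPM (13.0), so the others passed the limit through their Klk6+ levels.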

How the data were processed

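RNA from snap-frozen whole skin was made into unstranded polyA libraries and sequenced as 50-cycle single reads, per the labels' protocols. The authors deposited 1 table per mouse with whole-number read counts, not normalized, and with FPKM values scaled to length and depth. TopHat2, SAMtools, HTSeq and Cufflinks 2.2.1, with GRCm38 and mm10, stand in the submitters' processing notes, without roles; how multiply matching reads were treated was not stated in them.

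Counts were tested in R 4.3.3 with edgeR 4.0.16: filterByExpr (minimum count 10), TMM scaling, and quasi-likelihood F tests of genotype with sex as covariate (biological coefficient of variation 0.244). Sex-specific effects came from 4 genotype-by-sex means with a shared spread. Benjamini-Hochberg adjustment ran over 14861 genes, and adjusted p below 0.05 was called. Scripts were tested on simulated data. Genes named were the 10 of the group, genes of the listed companion groups, and the 8 nearest profiles. A gene of those groups is counted but not reported here. The genes and lists were chosen with earlier results of these data known. The labels name 1 mouse per library and give no batch. Replicate numbers follow accession order and pair nothing. Gene positions are from GENCODE on GRCm38, and word sharing between genes was counted in its transcripts. Alternatives covered scaling, filter, DESeq2 1.42.0, limma-voom (limma 3.58.1), FPKM with pseudocounts of 0.1 and 1, sex left out of the model, and each library left out in turn.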

Additional observations from a re-analysis of the deposited data

Results flagged for a closer look

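Of 18 groups of 5 libraries (9 genes in each genotype), 5 held a library far from the other 4 (a gap above 0.71 of the CPM range), all among the controls. The groups share the same libraries and some control values rest on few reads, so no chance rate can be given. WT 2 stood apart upward for Clec4d (5.10 CPM), Clec4e (5.39 CPM), Trem1 (0.963 CPM) and Cxcr2 (3.42 CPM). WT 3 stood apart upward for Ngp (0.329 CPM).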

How the results depend on the processing

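All 9 genes kept their direction and stayed called in each of 21 other settings, 189 values in all. With FPKM and a pseudocount of 1 the median log2 fold change of the 9 fell to 2.87, since a pseudocount shrinks differences of low genes. Leaving out 1 library at a time, the genes called higher within females numbered between 4 and 8 and within males between 8 and 9, the genes of the whole table with a sex interaction between 0 and 4 (4 without WT 3, 1 without Klk6+ 4), and the Clec4e to Clec4d shift lay between -0.85 and -0.22. With a prior count of 0.5, 5 of the 8 nearest profiles were shared. Hp, which was not called, changed sign to -0.34 without Klk6+ 3 and Klk6+ 5, to -0.26 without WT 2 as well, and lay between -0.14 and 0.41 with 1 library left out. Alas2, not called, was at -1.09 without Klk6+ 3 and Klk6+ 5, at -1.39 without WT 2 as well, and between -0.52 and 1.98 with 1 library left out, where the highest, without WT 3, was called. Over 41 named related genes and 21 settings, 840 of 861 values kept side and direction, 12 became called (Prtn3 in 9 settings, Mmp9 in 2, Alas2 in 1), 2 were no longer called (both Itgam) and 7 changed sign (Hp in 4, Alas2 in 3); the cause was not tested. Scaling moved the median of all genes from 0.04 to at most -0.06. No paired analysis was possible because the replicate numbers only follow accession order. At 0.0230 to 0.0373 CPM per count, the lowest control values of Ngp, Clec4e, Trem1 and Fpr1 rest on 0 to 3 reads.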
